A study of Mus musculus with 6 samples.

Results

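The cystatin family was followed in isolated testes of mice at postnatal day 4 through 8 genes, Cst3, Cst6, Cst8, Cst9, Cst11, Cst12, Cst13 and Cstb, of the 54232 genes in the count table. The genes were taken by name. The family was selected on the counts of Cst12, which were higher, after scaling, in conditional knockouts (cKO) of Dis3l2 than in wild type (WT) testes, so the Cst12 difference is described here without a test. The question was whether the genes around Cst12 in the cystatin cluster of chromosome 2 differ in the same way. The 3 cKO libraries are labelled Dis3l2 cKO and the 3 WT libraries Dis3l2 WT. All 6 came from testis at postnatal day 4 with the strain given as B6D2F1 inbred, and the labels name no other allele or treatment. Dis3l2 encodes an exoribonuclease that degrades RNAs with an oligouridine tail. The labels give neither the Cre driver nor the deleted exons of the cKO. Nor do they tell if each library is from its own animal. The p-values therefore rest on the spread among these libraries, which may be technical in part.

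The cKO libraries held 26126694, 34708401 and 35390560 counts and the WT libraries 41654998, 43265614 and 35750784. The shallowest, cKO replicate 1, also stood furthest from the libraries of its own group, with a chi-square per degree of freedom of 13.3 and 21.9 against the other two, which differed from each other by 6.54. Of 20153 genes with enough counts for a test, 685 were higher and 996 lower in cKO at an adjusted p under 0.05 (edgeR quasi-likelihood test, Benjamini-Hochberg adjustment over all 20153 genes). Without cKO replicate 1 these counts were 1670 and 1705. They were 277 and 524 without cKO replicate 2, 288 and 471 without WT replicate 1, 236 and 387 without WT replicate 2, and 327 and 510 without WT replicate 3. Genes past that threshold are called below. Log2 fold changes are cKO over WT, and CPM (counts-per-million) are on scaled library sizes. Germ cell markers were lower in cKO. The summed level of 12 of them lay between 574 and 638 CPM in cKO libraries and between 985 and 1045 CPM in WT libraries. Of the 12, 8 fell, with Ddx4 lower by a log2 fold change of -1.05, while 4.94% of all genes tested were called lower. The other 4 were not called, among them Nanos3 (-0.08) and Sycp3 (-0.11), which lay near 0. In whole testes, fewer cells of a type and less RNA per cell cannot be told apart.

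Cystatins are small proteins known as tight inhibitors of papain-like cysteine proteases, such as the lysosomal cathepsins. Cystatin C, encoded by Cst3, is the secreted type made in most tissues, whereas cystatin B, encoded by Cstb, stays inside cells. A subgroup named after CRES, the product of Cst8, is expressed mainly in the reproductive tract and lacks part of the sequence through which other cystatins bind these proteases. Many of the genes lie side by side in a cluster that arose by duplication.

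The chromosome 2 cluster holds 6 of the 8 genes within 107.1 kb. By the gene models of the count table (GRCm38), Cst11 lies at 148768609 to 148771497 on the minus strand, and Cst12 at 148789361 to 148793546, Cst8 at 148798785 to 148805595, Cst13 at 148820081 to 148830410 and Cst9 at 148835147 to 148838738 on the plus strand. Cst3 closes the row at 148871722 to 148875692 on the minus strand. A further cystatin gene, 8030411F24Rik (148782009 to 148785937, plus strand), ends 3.42 kb before Cst12 starts. RefSeq names it Cstdc1 and lists Cst14 as a synonym. Another cystatin gene, 9230104L09Rik (Cstdc2, 148846711 to 148865038, minus strand), lies between Cst9 and Cst3. Cstb lies on chromosome 10 (78425669 to 78427622, plus strand) and Cst6 on chromosome 19 (5344705 to 5349574, minus strand). No other gene model of the table overlaps any of the 8 members or Cstdc1 on either strand. A near-identical copy in another gene (an alignment over 30% or more of the transcript at 95% identity or higher) was found for 0 of the 8 members and not for Cstdc1.

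The promoter sequences of the 3 adjacent genes Cstdc1, Cst12 and Cst8 are shown because the first 2 were higher in cKO and Cst8 was not called. The sequences run from 250 bases before to 50 after the RefSeq start (GRCm38.p6, plus strand): chr2:148781759-148782058 for Cstdc1, chr2:148789115-148789414 for Cst12 and chr2:148798589-148798888 for Cst8. In Cstdc1 and Cst12 the capitals mark the longest run of letters that these promoters share, on either strand. In Cst8 they mark CAAGGTCA, a site of the kind bound by the gonadal receptor NR5A1.
Cstdc1: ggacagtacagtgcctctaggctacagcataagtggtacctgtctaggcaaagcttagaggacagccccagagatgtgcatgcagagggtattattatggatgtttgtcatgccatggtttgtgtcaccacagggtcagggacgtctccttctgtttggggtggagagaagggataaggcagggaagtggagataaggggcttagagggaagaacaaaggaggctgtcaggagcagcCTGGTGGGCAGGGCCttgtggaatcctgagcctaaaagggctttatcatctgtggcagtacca
Cst12: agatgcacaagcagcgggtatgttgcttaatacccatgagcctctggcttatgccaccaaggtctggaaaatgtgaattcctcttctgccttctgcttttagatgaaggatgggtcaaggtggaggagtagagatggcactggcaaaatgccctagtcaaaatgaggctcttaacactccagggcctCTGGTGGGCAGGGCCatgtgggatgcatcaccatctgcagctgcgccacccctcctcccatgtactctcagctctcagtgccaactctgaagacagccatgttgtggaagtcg
Cst8: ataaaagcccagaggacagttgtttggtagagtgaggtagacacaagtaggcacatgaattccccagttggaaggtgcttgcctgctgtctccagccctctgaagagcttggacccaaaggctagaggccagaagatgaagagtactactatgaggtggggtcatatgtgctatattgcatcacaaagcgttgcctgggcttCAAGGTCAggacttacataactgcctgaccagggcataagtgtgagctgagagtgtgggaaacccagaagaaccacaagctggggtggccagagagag
The shared run of 15 bases starts 63 bases before the start of Cst12 and 13 bases before that of Cstdc1. It was the longest among all pairs of the 8 cystatin promoters of this cluster that the RefSeq table holds. On either strand, 3 of 27025 promoters (0.0111%) contain it, the pair itself among them. The run was picked for its length, so its rarity is no support for a shared element. The next longest shared run, 13 bases, was that of Cst13 and Cstl1. Cst9 and Cst3, whose promoters are not printed, were also called higher. The longest run shared with Cst12 was 8 bases for Cst9, 11 for Cst3 and 11 for Cst8. In these pairs the length of the run did not follow the calls. CAAGGTCA was present, on either strand, in the promoter of Cst8 alone among the 8, and in 1.53% of all promoters. The TATA box letters TATAAA occurred in 1 of the 8 (Cst13) and in 14.2% of all promoters, and the SOX core AACAAT in 1 of the 8 (Cstl1) and in 10.9%. These matches describe letters in a window and do not show that a factor binds there.

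Levels per length of the gene model differed widely within the family. They are given as RPKM, the CPM divided by the length of the gene model in kilobases. Cst3 was the most abundant, at 412 ± 8 RPKM in cKO and 356 ± 13 RPKM in WT (SD, n = 3 each). Cst12 followed with 286 ± 16 RPKM in cKO and 230.4 ± 14.9 RPKM in WT (SD, n = 3 each), ahead of the intracellular inhibitor gene Cstb with 35.2 ± 4.1 RPKM in cKO and 37.4 ± 3.8 RPKM in WT (SD, n = 3 each). Together Cst3 and Cst12 made up most of the family's reads, with Cst12 at 24.7%, 25.8% and 24.02% in the cKO libraries and 22.5%, 24.1% and 23.5% in the WT libraries. Cst9, the gene of testatin, which is known from pre-Sertoli cells of the fetal testis, had 17.9 ± 1.1 RPKM in cKO and 13.7 ± 1.3 RPKM in WT (SD, n = 3 each). Cst8 had 11.1 ± 1.9 RPKM in cKO and 11.4 ± 1.1 RPKM in WT (SD, n = 3 each). Over all 6 libraries the ranges of Cst9 and Cst8 overlapped, as did those of Cst13 and Cst11, while every other pair of neighbours in this order was separated.

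**Figure D1:**
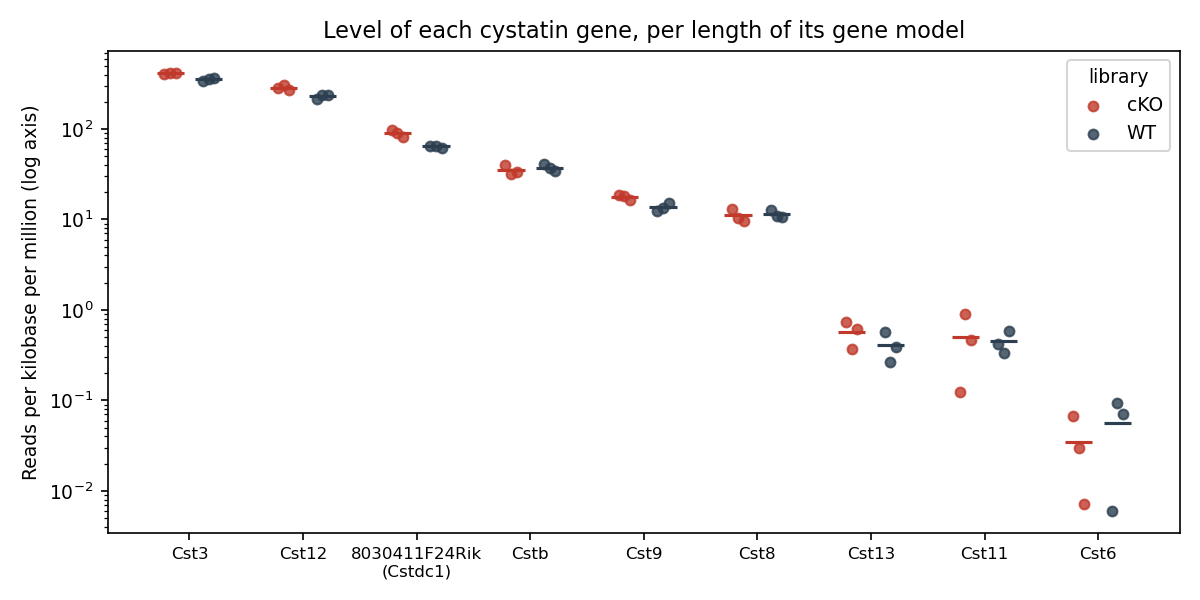
Level of the 8 cystatin genes and the adjacent 8030411F24Rik (Cstdc1) in RPKM on a log axis, ordered by their mean, with cKO libraries left of WT libraries. Points are libraries and bars are group means (n = 3 each). Cst3 and Cst12 lie far above the others, and Cst13, Cst11 and Cst6 lie below 1.

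Cst12, also listed by RefSeq as CRES3, was higher in every cKO library. It had 184, 199 and 179 CPM in the cKO libraries, against 139.7, 157 and 156 CPM in the WT libraries (4829, 6818 and 6237 counts in cKO, 5870, 6821 and 5596 in WT). The lowest cKO library lay above the highest WT library. The fitted log2 fold change was 0.31 (SE 0.06), or 1.24 times, and it ran from 0.26 to 0.34 when single libraries were left out. It was 0.32 without cKO replicate 1.

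The difference was shared by the gene directly before Cst12. Cstdc1, listed in the table as 8030411F24Rik, is annotated as protein-coding. It had 58.6, 54.6 and 49.2 CPM in the cKO libraries, against 38.8, 39.5 and 37.5 CPM in the WT libraries. The groups did not overlap. It rose by 0.49 on the log2 scale (SE 0.07, edgeR adjusted p = 0.00178), or 1.40 times, and it was called under every alternative tried, without each single library included. Its level per length was 89.9 ± 7.9 RPKM in cKO and 64.1 ± 1.7 RPKM in WT (SD, n = 3 each), between those of Cst12 and Cstb.

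Cst8, the gene directly after Cst12, was not called. Its product CRES is known from the epididymis and from male germ cells. The cKO libraries had 11.3, 8.86 and 8.20 CPM and the WT libraries 10.9, 9.35 and 9.04 CPM, so the groups overlapped, with replicate 1 the highest in each. The log2 fold change was -0.05 (SE 0.14, edgeR adjusted p = 0.871). It was -0.20 without cKO replicate 1, and above 0 without cKO replicate 3 (0.04) or WT replicate 1 (0.03), so its direction is not settled.

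Cst9 and Cst3, at the far end of the cluster, were called higher. Cst9 had 12.9, 12.6 and 11.4 CPM in the cKO libraries, against 8.61, 9.26 and 10.3 CPM in the WT libraries. The groups did not overlap, and the gap between the lowest cKO and the highest WT library was small. Cst9 rose by 0.39 on the log2 scale (SE 0.11, edgeR adjusted p = 0.0486), just inside the threshold. The call was lost without cKO replicate 2 (edgeR adjusted p = 0.164) or WT replicate 1 (0.177), 2 (0.169) or 3 (0.0647). Total counts as the scaling (edgeR adjusted p = 0.0565) and no filter on low counts (0.057) ended it too. So did the replicate number as a block (edgeR adjusted p = 0.0659). Over all alternatives the Cst9 log2 fold change stayed between 0.33 and 0.46.

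Cst3 had 510.3, 531 and 525 CPM in the cKO libraries, against 435, 452 and 467 CPM in the WT libraries. Here too the groups did not overlap. Cst3 rose by 0.21 on the log2 scale (SE 0.05, edgeR adjusted p = 0.0166), or 1.16 times. The call was lost without cKO replicate 2 (edgeR adjusted p = 0.0894), WT replicate 1 (0.0857) or WT replicate 2 (0.0965), and the log2 fold change stayed between 0.18 and 0.24 with single libraries left out. Without cKO replicate 1, the library that stood apart, log2 fold changes were 0.42 for Cstdc1, 0.35 for Cst9 and 0.22 for Cst3, and all 3 were called (edgeR adjusted p = 0.000145, 0.0445 and 0.00112).

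**Figure D2:**
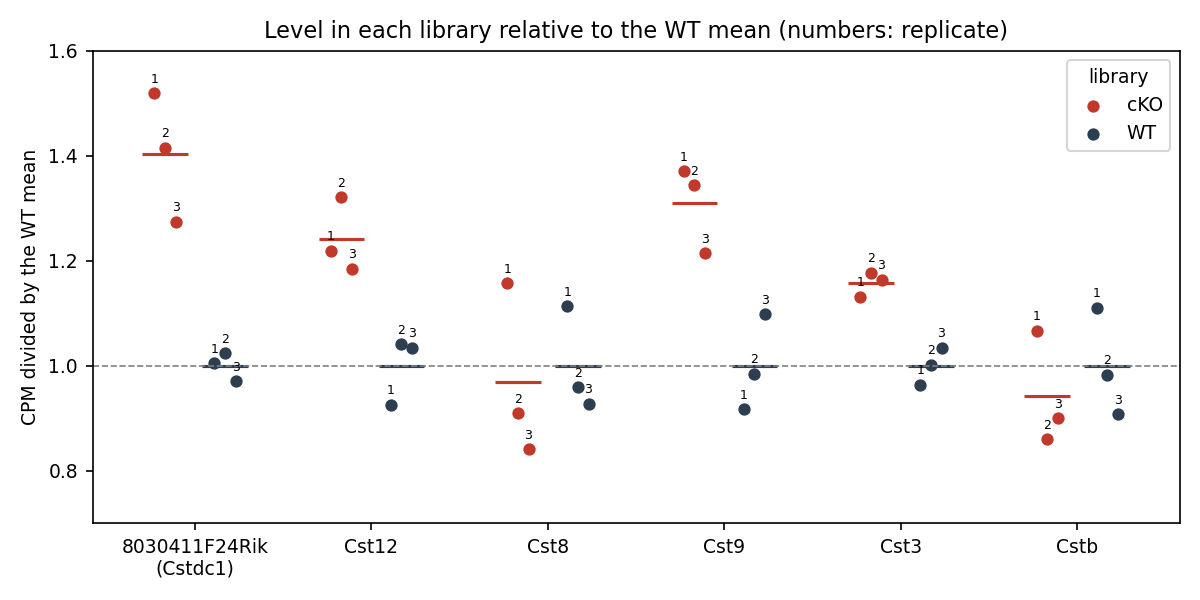
CPM of each library divided by the mean of the 3 WT libraries, for Cstdc1, Cst12, Cst8, Cst9 and Cst3 in their order along chromosome 2 and for Cstb. Points are libraries with their replicate number and bars are group means. The cKO libraries lie above the WT libraries for Cstdc1, Cst12, Cst9 and Cst3, and the groups overlap for Cst8 and Cstb.

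Of the 7 members other than Cst12, 6 had enough counts for a test, 2 of them rose (Cst9 and Cst3), 0 fell and 4 did not pass. Over all genes tested, 8.34% were called, 3.4% higher and 4.94% lower. Groups did not overlap for 2 of these 6, with cKO higher in each, while groups did not overlap for 28.2% of all genes tested, with every cKO library above every WT library for 13.6% and below for 14.6%. The median log2 fold change of the 6 was 0.20, beside 0.01 over all genes tested. The count of 2 became 0 without cKO replicate 2, WT replicate 1 or WT replicate 2. It became 1 without WT replicate 3, with total counts as the scaling, with no filter or with the replicate number as a block.

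The ratio of Cst12 to its neighbours, taken in each library, shows how far they moved together. The log2 ratio of Cst12 to Cst9 was 3.84, 3.98 and 3.97 in the cKO libraries and 4.02, 4.08 and 3.92 in the WT libraries, which overlapped. The log2 ratio of Cst12 to Cst8 was 4.03, 4.49 and 4.45 in the cKO libraries and 3.69, 4.07 and 4.11 in the WT libraries, where cKO replicate 1 lay among the WT values. That of Cst12 to Cstdc1 averaged 1.79 ± 0.12 in cKO and 1.97 ± 0.11 in WT (SD, n = 3 each). That of Cst12 to Cst3 averaged -1.48 ± 0.07 in cKO and -1.58 ± 0.06 in WT (SD, n = 3 each). For both ratios the cKO and WT libraries overlapped. These ratios use the Cst12 difference that led to the family and carry no test.

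**Figure D3:**
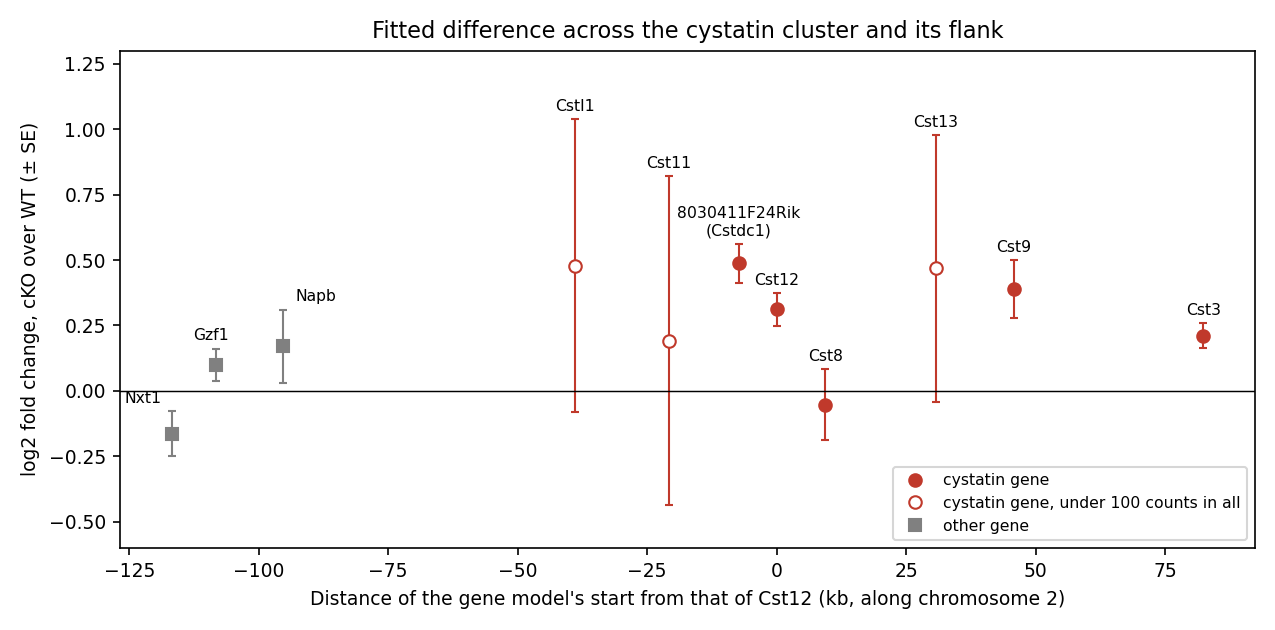
Log2 fold change of cKO over WT with its standard error for the tested genes within 130 kb of the start of Cst12, by the distance of the gene's start along chromosome 2. Filled circles are cystatin genes, open circles are cystatin genes with under 100 counts over all libraries, and squares are other genes. Cstdc1, Cst9 and Cst3 lie above 0 by more than 2 standard errors, and Cst8 and the non-cystatin genes Nxt1, Gzf1 and Napb do not. Cst12, on which the family was selected, is shown as a description without a test.

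Within 500 kb on either side of the chromosome 2 members lay 19 further genes, of which 9 could be tested. The only one called was Cstdc1, and Cstl1, another cystatin gene and the nearest tested gene before the members, had 14, 13 and 10 counts in the cKO libraries and 14, 17 and 4 in the WT libraries. The 7 tested genes that are not cystatins gave 0 calls in edgeR, DESeq2 and limma-voom, with edgeR log2 fold changes from -0.53 to 0.17 and a median of 0.03. With 8.34% of all genes tested called, 0 of 7 is near that share and does not set these neighbours apart. Of all 9 genes, 1 had an unadjusted p under 0.05, which was Cstdc1. Among the untested genes, Cstdc2 had 17, 4 and 11 counts in the cKO libraries and 9, 4 and 6 in the WT libraries. At this depth no direction can be read for Cstdc2. For Napb, which encodes a protein of membrane fusion, the fitted value was 0.17 (SE 0.14, edgeR adjusted p = 0.527). The nearest tested gene after the members was the processed pseudogene Gm14131 (log2 fold change -0.43, SE 0.27, edgeR adjusted p = 0.386). Gm14131 starts only at 149356687, while Cst3 ends at 148875692. No other gene within 500 kb after Cst3 could be tested, so that flank is hardly covered. With windows of 250 kb and 1 Mb the count was again 1.

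Cstb, the intracellular inhibitor, had 24.04, 19.4 and 20.3 CPM in the cKO libraries, against 25.03, 22.1 and 20.4 CPM in the WT libraries. The groups overlapped, and the fitted value of Cstb was -0.09 on the log2 scale (SE 0.10, edgeR adjusted p = 0.672). It was -0.19 without cKO replicate 1 and -0.01 without WT replicate 1.

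The last 3 members had few counts. Cst13 had 15, 10 and 17 counts in the cKO libraries and 19, 9 and 11 in the WT libraries (log2 fold change 0.47, SE 0.51, edgeR adjusted p = 0.645). Cst11, known from the epididymis, had 2, 19 and 10 counts in the cKO libraries and 11, 9 and 13 in the WT libraries (log2 fold change 0.19, SE 0.63, edgeR adjusted p = 0.8995). Its fitted value was -0.54 without cKO replicate 2 and -0.05 in limma-voom. At this depth no direction can be read for Cst13 or Cst11. Cst6, which encodes the skin cystatin M/E, had 7, 4 and 1 counts in the cKO libraries and 1, 16 and 10 in the WT libraries and did not pass the filter on low counts. Its 1 count in cKO replicate 3 corresponds to 0.0287 CPM with an exact 95% Poisson interval from 0.000726 to 0.160 CPM, and its 7 counts in cKO replicate 1 to 0.267 CPM with an interval from 0.107 to 0.549 CPM. For comparison, 8 cathepsin genes known from the placenta had between 0 and 7 counts in any library. Intervals cover counting error only.

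Other genes of the cystatin superfamily that rose were stefin A genes of chromosome 16, which are known from neutrophils and other myeloid cells. Of 26 names in the list, 20 genes were in the table and 9 could be tested, of which 3 rose (Cstdc1, BC100530 and Stfa2), 0 fell and 6 missed the threshold. The median log2 fold change of the 9 was 0.49, beside 0.01 over all genes tested, of which 3.4% were called higher. BC100530 had 30, 68 and 59 counts in the cKO libraries, against 13, 24 and 10 counts in the WT libraries. It rose by 2.06 on the log2 scale (SE 0.38, edgeR adjusted p = 0.00598). Stfa2 had 21, 53 and 40 counts in the cKO libraries, against 8, 7 and 17 in the WT libraries. Stfa2 rose by 2.11 on the log2 scale (SE 0.48, edgeR adjusted p = 0.0184), and its call was lost without cKO replicate 2 (edgeR adjusted p = 0.12), WT replicate 1 (0.0918) or WT replicate 2 (0.0993). Several stefin A genes have a near-identical copy over part or most of the transcript. Stfa2 matched Stfa2l1 at 96.5% over 77.9% of the transcript, and BC100530 matched Gm15845 at 100% over 30.3%. In turn, BC117090 matched BC100530 at 95.9% over 100% of the BC117090 transcript. Stfa1 matched BC100530 at 97.7% over 35.3% of the Stfa1 transcript. Stfa3 had no such copy, with 86.6% to Gm5416. The counting tool leaves out reads that map to more than 1 place by default, so single values of genes with a copy are uncertain. Without cKO replicate 1, 6 genes of the list rose.

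Of 12 macrophage markers, 5 rose, 0 fell and 7 did not pass, while 3.4% of all genes tested were called higher. Their summed level was 141 to 143 CPM in cKO libraries and 104 to 116 CPM in WT libraries. Fcgr3 rose by 0.70 on the log2 scale and Mrc1 by 0.35 in the edgeR test. All 12 fitted values were above 0, but C1qa (0.01), C1qc (0.03) and Aif1 (0.10) were near 0 and were not called. The count of 5 became 2 without cKO replicate 2 or WT replicate 1, 3 without cKO replicate 3, 0 without WT replicate 2 and 1 without WT replicate 3. The part of macrophages in the stefin A and Cst3 results was not tested.

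Cathepsins are among the proteases that cystatins are known to inhibit. Of 19 cathepsin and legumain genes, 10 could be tested, of which 1 rose, 1 fell and 8 did not pass (median log2 fold change 0.13). Over all genes tested, 3.4% were called higher and 4.94% lower, so these counts do not set the list apart. Ctsl, which Sertoli cells are known to secrete, had 1727, 1893 and 1778 CPM in the cKO libraries, against 1388, 1516 and 1484 CPM in the WT libraries. The groups did not overlap, and Ctsl rose by 0.30 on the log2 scale (SE 0.05, edgeR adjusted p = 0.00371), a call that every alternative kept. Per length Ctsl had 277 ± 13 RPKM in cKO and 225 ± 10 RPKM in WT (SD, n = 3 each). These values lie near those of Cst12 only because the gene model of Ctsl is 6489 bases long, against 655 for Cst12. In CPM, Cst12 was far lower than Ctsl, with means of 187 in cKO and 151 in WT. Ctsf, the gene of cathepsin F, had 13.4, 14.0 and 13.3 CPM in the cKO libraries, against 20.8, 19.1 and 16.6 CPM in the WT libraries, and fell by 0.48 on the log2 scale (SE 0.10, edgeR adjusted p = 0.0122). Ctsf missed the threshold once WT replicate 1 or 2 was left out (edgeR adjusted p = 0.0737 and 0.0726). Ctsb (0.26, edgeR adjusted p = 0.0595) and Ctsc (0.33, edgeR adjusted p = 0.0842) lay outside the threshold.

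**Figure D4:**
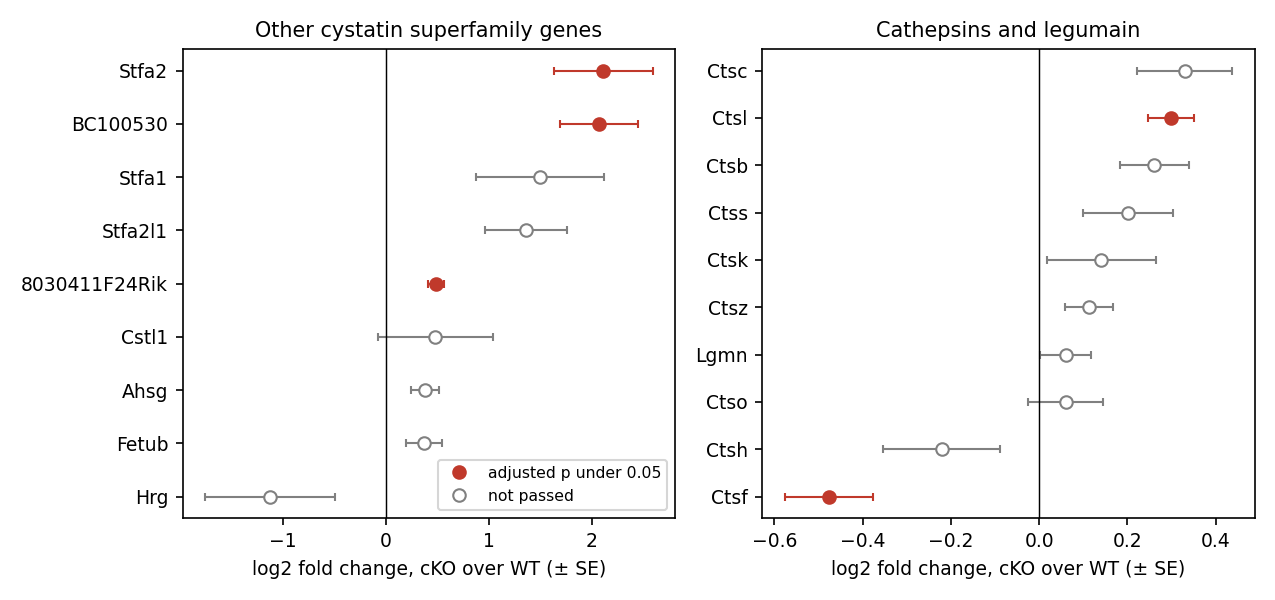
Log2 fold change of cKO over WT with its standard error for the tested genes of the wider cystatin list (left) and of the cathepsins and legumain (right). Filled points passed the test, and open points did not. Stfa2, BC100530 and 8030411F24Rik (Cstdc1) lie to the right on the left panel, and on the right panel Ctsl passed above 0 and Ctsf below it.

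Of 20 Sertoli cell markers, 6 rose and 1 fell, and the other 13 missed the threshold. The summed level of the 20 was 6396 to 7140 CPM in cKO libraries and 5955 to 6066 CPM in WT libraries, and 0 of the 20 had no counts in a library. Their median log2 fold change was 0.20, beside 0.01 over all genes tested, of which 3.4% were called higher and 4.94% lower. Ptgds (0.72), the X-linked homeobox gene Rhox8 (0.33) and clusterin, Clu (0.28), rose, and Kitl fell by 0.28. Of the 20 fitted values 17 were above 0, but Aard (0.02), Mro (0.02) and Cldn11 (-0.05) were near 0 and were not called. The count of 6 was 12 without cKO replicate 1 and 2 without cKO replicate 2 or any one of the WT libraries. The single call that fell, Kitl, was lost without WT replicate 2. Set against the mean log2 CPM of the 20 markers in the same library, a comparison chosen after the values were seen, Cst12 stood at 0.74, 0.72 and 0.47 in the cKO libraries and at 0.40, 0.56 and 0.49 in the WT libraries, which overlapped. Cst9 stood at -3.09, -3.25 and -3.49 in the cKO libraries and at -3.61, -3.52 and -3.42 in the WT libraries, which overlapped as well. Cstdc1 stood at -0.91, -1.15 and -1.39 in the cKO libraries and at -1.44, -1.43 and -1.57 in the WT libraries, which did not overlap. These relative values are a description. The part of Sertoli cells or of the lower germ cell level in the differences was not tested.

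Markers of epididymal and efferent duct epithelium, where Cst8 and Cst11 are known to be expressed, were low. The summed level of 12 markers was 9.75 to 15.8 CPM in cKO libraries and 15.5 to 22.01 CPM in WT libraries. Krt7 fell by 1.47 on the log2 scale (edgeR adjusted p = 0.0313), a call that was lost without cKO replicate 2 (0.124), WT replicate 1 (0.140), 2 (0.132) or 3 (0.0541), and the other 7 tested did not pass. Without cKO replicate 3, 2 markers fell. The epididymal genes Lcn8 and Lcn9 had no counts in 5 and 3 of the 6 libraries, and Adam7 had 5 to 10 counts in each. The part of the ducts in the counts of Cst8 and Cst11 was not tested.

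Over the 6 libraries, the genes whose log2 CPM followed Cst12 most closely were Mfap1a, Mt1, Tle6, Slc22a15 and Tmem106b, with Pearson r from 0.990 to 0.998. Of 15721 genes that averaged 1 CPM or more, 530 (3.37%) had r above 0.9. Among them were Cst3 (r = 0.96) and Cst9 (r = 0.95), whereas Cstdc1 had r = 0.89, Cst8 r = -0.31 and Cstb r = -0.56. The r values pool cKO and WT libraries and so carry the group difference on which Cst12 was selected. The values describe these 6 libraries and are no separate support.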

How the data were processed

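RNA of 6 testis samples was sequenced, 3 labelled cKO and 3 labelled WT, and grouped by their titles. The authors' deposited table gives raw counts for each gene, made with featureCounts 1.6.4 on GENCODE M18 gene models with reads counted on the gene's strand, per the file headers. No option for pairs or for reads that map to more than 1 place was set in that command. The submitters' processing notes name cutadapt, HISAT2 and GRCm38.p5. Per the labels' protocols, targeted transcripts were depleted with AnyDeplete and priming was random and poly(T), while the molecule field reads polyA RNA. Of the 54232 genes, 54079 got a name from the annotation tables, and 0 columns were left without a sample.

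Genes were kept with filterByExpr and scaled by TMM. Groups were compared by the edgeR 4.0.16 quasi-likelihood test in R 4.3.3 (two-sided, group as the only term), with adjustment over all genes kept. Levels per length used the exon length the authors' table gives. Transcripts were compared with minimap2 2.31-r1302. The fit was tested on simulated data. Of planted log2 differences, 50% were called at a size of 0.5 and 82.3% at a size of 1. Of the calls, 5.93% had no planted difference. A difference of 0.5 or less can thus be missed. The genes named are the 8 members, up to 4 called genes of each list by lowest p, the nearest tested gene on each side of the members and the 5 genes most like Cst12. Other genes named within the lists were chosen after their values were seen. Among them were Stfa2l1, Cstdc2, Ctsb, Ctsc, Napb, Nxt1, Gzf1, Lcn8, Lcn9, Adam7, Nanos3, Sycp3, Aard, Mro, Cldn11, C1qa, C1qc, Aif1, BC117090 and Stfa1. The members and lists were chosen with earlier results of these data known. Alternatives were DESeq2 1.42.0 size factors or total counts as scaling, 2 other filters, DESeq2, limma-voom (limma 3.58.1), the replicate number as a block, and each library left out in turn.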

Additional observations from a re-analysis of the deposited data

How the results depend on the processing

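Of 396 values of named genes other than Cst12 under alternatives, 350 kept their direction and their side of the threshold, 42 kept the direction and lost the call, and 4 changed sign, which were Cst8 without cKO replicate 3 (0.036) or WT replicate 1 (0.033) and Cst11 without cKO replicate 2 (-0.54) and in limma-voom (-0.047). With single libraries left out, log2 fold changes ran from 0.18 to 0.24 for Cst3, 0.33 to 0.46 for Cst9, -0.20 to 0.04 for Cst8, -0.54 to 0.60 for Cst11 and 0.26 to 0.34 for Cst12. The members other than Cst12 that rose then numbered 0 to 2, the wider cystatins 2 to 6, the proteases 1 to 2 with 0 to 1 that fell, the Sertoli markers 2 to 12 with 0 to 1 that fell, the duct markers that fell 0 to 2, and the macrophage markers 0 to 6. All genes called numbered 236 to 1670 higher and 387 to 1705 lower. Cst9 lost its call with total counts as the scaling (log2 fold change 0.37) and with no filter (0.38), which left 1 member called under each. With no filter, 10 Sertoli markers rose and 2 duct markers fell. In the protease list 2 genes rose with no filter, with at least 1 CPM in 3 libraries, in DESeq2 and in limma-voom. The cause of these changes was not tested.

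The replicate number as a block left Cst9 outside the threshold (log2 fold change 0.39, edgeR adjusted p = 0.0659), so that 1 member other than Cst12 rose, and 2 proteases rose. Libraries with the same number deviated together only weakly (correlations of 0.031, 0.013 and 0.065). Each cKO library correlated most with the WT library of its own number. Seen from the WT side, replicates 1 and 3 also correlated most with their own number. WT replicate 2 correlated most with cKO replicate 1 (0.023). Values this small from 3 libraries a group cannot settle if the numbers pair the samples. At 3 libraries a group, members with under 100 counts in all allow no statement on direction.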
